A study of Homo sapiens with 2 samples.

Results

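The genes described here encode the proteins that make microRNAs, load them onto Argonaute and then shorten, decap and degrade the repressed messenger RNA. They are 32 human genes in 4 steps, and their values come from C4-2 cells, an established androgen receptor-positive prostate cancer line derived from LNCaP. Cells were transfected with miR-99a, or with the small interfering RNA si-GL2 as control, with RNAiMax, and total RNA was taken after 48 h and hybridised to Affymetrix arrays. Both groups are the same line in the same medium with 10% serum and differ by the transfected RNA, and each group holds 1 array. Every difference below is therefore between 2 arrays and has no replicate error and no p-value. All probe sets that the platform annotation gives to exactly 1 of these genes were taken, which yielded 93 probe sets for 31 of the 32 genes, out of 41091 such probe sets for 19775 genes.

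As background, a primary microRNA transcript is cut in the nucleus by the Microprocessor, DROSHA with DGCR8, and the hairpin is exported by exportin 5 and cut again by Dicer. A single strand is held by an Argonaute protein, which uses the seed near its 5′ end to find target messages and binds a TNRC6 (GW182) scaffold protein. TNRC6 recruits the PAN2-PAN3 and CCR4-NOT deadenylases, after which the DCP1-DCP2 complex removes the cap and XRN1 degrades the body of the message. The labels do not give the form in which miR-99a was transfected.

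The transfected microRNA is shown with its relatives because the seed decides which messages Argonaute binds. The labels name miR-99a without an arm, so both mature strands are given, as RefSeq places them on GRCh38.p14, and capitals mark the seed, bases 2 to 8. Of 2545 mature human microRNA entries, 3 carry the seed of the 5p strand.
hsa-miR-99a-5p: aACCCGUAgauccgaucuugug
hsa-miR-99a-3p: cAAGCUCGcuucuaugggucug
hsa-miR-100-5p: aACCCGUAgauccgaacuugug
hsa-miR-99b-5p: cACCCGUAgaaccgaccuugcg
The 5p strand of miR-99a lies at chr21:16539101-16539122 and its 3p strand at chr21:16539138-16539159, both on the plus strand. Counted from the 5′ end of miR-99a-5p, miR-100-5p differs by U16A, and miR-99b-5p by A1C, U11A, U16C and U21C. No substitution among them falls inside the seed.

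Values are deposited signal intensities, and a difference is always log2(signal + 16) after miR-99a minus that after si-GL2, which understates the change of dim probe sets. A probe set counted as above the level limit when its mean over both arrays was no lower than the median over the 54675 on the array, a signal of 47.2. Such a limit ranks probe sets and does not show that a transcript was detected. Signals of different probe sets are not read as relative amounts of transcript, because probes differ in how strongly they bind. Picking the brightest probe set of a gene, applying the limit and summing marker signals do set them side by side. The arrays had medians of 47.8 and 47.4, and 18 hybridisation spike probe sets differed by between -0.12 and 0.06. Probe sets of the same gene scattered around their gene's mean with an SD of 0.20 over 5842 genes, which measures disagreement between probes and not between cultures. The ratio of 5′ to 3′ signal moved by -0.02 for ACTB and 0.06 for GAPDH, while the 5′ and middle probe sets of 18S ribosomal RNA were each at -0.99 and the 3′ one at 0.09; the part of ribosomal RNA carry-over in any value below was not tested. All 9 luminal prostate markers with a probe set of their own were above the limit, at signals from 312 to 7147 on the si-GL2 array and from 378 to 6982 on the miR-99a array. Of the leukocyte markers 2 of 5 were above the limit, and the signals of all 5 summed to 191 on the miR-99a array and 162 on the control array. The fibroblast list had 4 of 6 above it, with sums over all 6 of 525 and 452, and the endothelial list 2 of 6, with sums over all 6 of 378 and 391. No marker was at 0, and the part of other cells in the results was not tested. In bulk RNA, fewer cells of a kind and less RNA per cell cannot be told apart.

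More of these genes were slightly higher than lower after miR-99a, and the genes farthest below the control, AGO4 and TNRC6B, belonged to the Argonaute step. The genes below 0 were spread over all 4 steps. By its brightest probe set, 21 of the 30 genes above the limit (70%) lay above 0, against 43.7% of the 12218 genes above it. Their median difference was 0.14, against -0.031 for all genes. When probe sets marked _x_ or _s_, types that can match more than a single transcript, were left out, the median was 0.085, against -0.040 for all genes, and 14 of 24 genes lay above 0, against 43.4%. The size of these differences was close to the scatter between probe sets: no gene was at least 1.5-fold higher by its brightest probe set, where 1.21% of all genes were, and 1 gene, AGO4, was at least 1.5-fold lower, where 2.9% were. Without TNRC6B and AGO4 the median of the other 28 genes was 0.15. These genes were left out after their values were seen, and leaving out the lowest genes cannot lower a median.

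**Figure D1:**
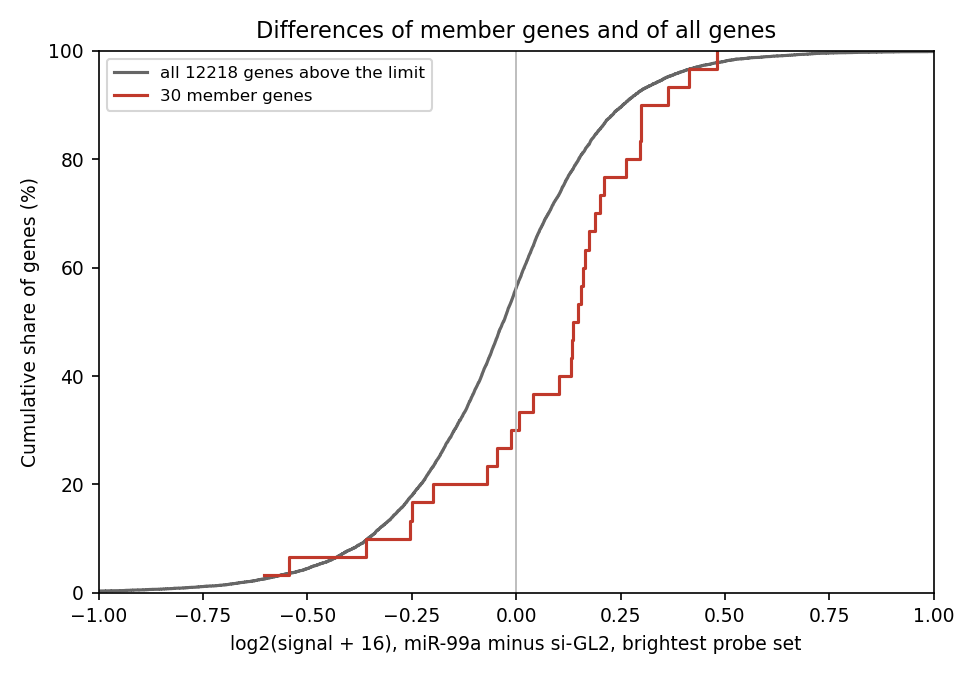
Cumulative share of genes (vertical axis, percent) against the log2 difference, miR-99a minus si-GL2, of each gene's brightest probe set (horizontal axis, shown from -1 to 1). The red line of the 30 member genes crosses 0 at 30% of the genes and lies to the right of the grey line of all 12218 genes over most of its range, while the lines meet at the low end.

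At the level of probe sets, 72 of the 93 were above the limit. Of these, 44 (61.1%) lay above 0, against 46% of all such probe sets, and 28 below. Of these 72, 4 were at least 1.5-fold lower (5.56%), against 2.76% of all 22401 probe sets above the limit that carry 1 gene name, and 1 was at least 1.5-fold higher (1.39%), against 1.53%. Of the 4 lower ones 3 belonged to TNRC6B and 1 to AGO4. Those of TNRC6B include 240044_x_at, which passed the limit only through its si-GL2 signal. Without TNRC6B, a gene left out after its values were seen, the share was 1.54%. Under a pseudocount of 64 the number of lower probe sets was 1 of 72, where 1.33% of all probe sets were lower, and that of higher ones 0, where 0.647% were higher.

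A check within the arrays came from the 22 genes with at least 2 probe sets above the limit. In 8 of them (36.4%) every such probe set lay above 0, against 24.6% of 5842 genes: XPO5, AGO1, TNRC6A, CNOT1, CNOT7, CNOT8, DCP1A and XRN2. For XPO5, CNOT8 and XRN2 all of these probe sets are marked _s_. In 4 (18.2%) every one lay below 0, against 31.6%: TNRC6B, CNOT2, CNOT6 and XRN1. The other 10 held probe sets on both sides of 0. A further 8 genes had a single probe set above the limit and so no such check, 6 of them above 0. Over 5 other scalings of the data, 5 of the 72 probe sets changed sign, none of which differed by more than 0.019. They belong to RAN, DICER1, TNRC6B, CNOT7 and DDX6. Of these scalings, the pseudocounts of 1 and 64 cannot change a sign, and centring moves every probe set by the same amount. The count of sign changes is therefore a weak check.

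**Figure D2:**
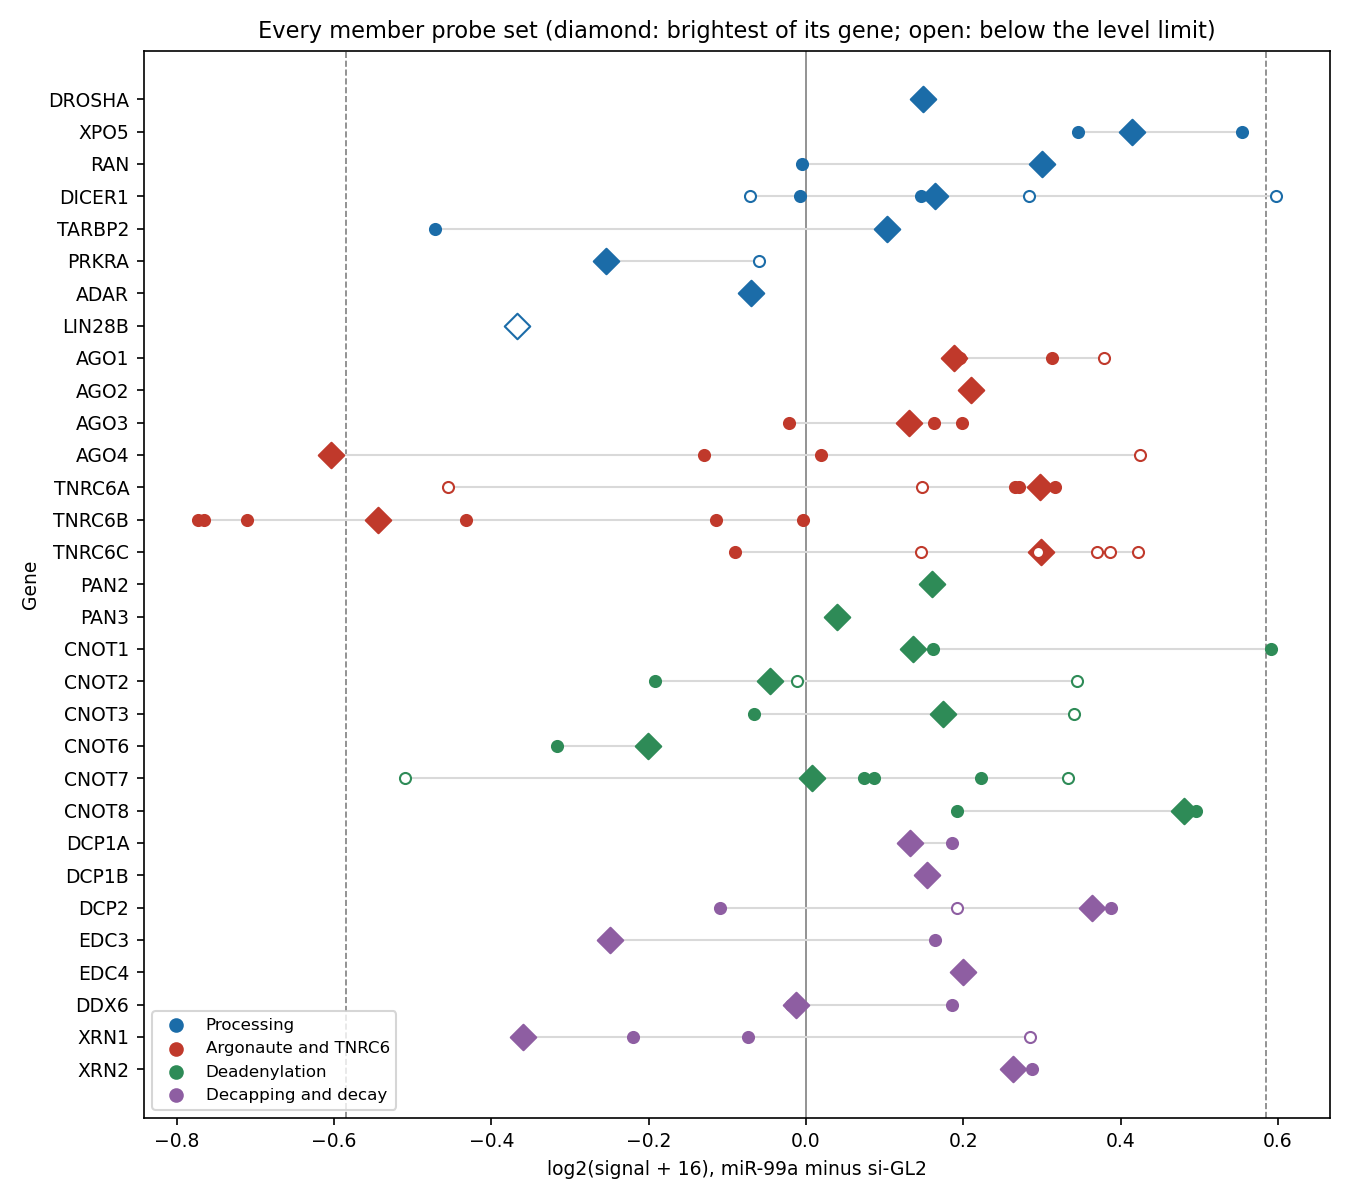
The log2 difference, miR-99a minus si-GL2 (horizontal axis), of all 93 probe sets of the 31 genes (rows, coloured by step). Diamonds are the brightest probe set of a gene, open symbols lie below the level limit, and dashed lines mark 1.5-fold; the 7 filled symbols of TNRC6B spread from -0.77 to -0.0037, while most other diamonds sit between 0 and 0.5.

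The processing genes were led by exportin 5. XPO5, which carries pre-microRNA hairpins out of the nucleus, had signals of 712 on the miR-99a array and 530 on the si-GL2 array for its brightest probe set, a difference of 0.41. Its other probe sets, again with the miR-99a value first as in all pairs below, were 303 against 235 (0.35) and 217 against 143 (0.55). All 3 probe sets were higher on the miR-99a array, and none reached 1.5-fold on the log2(signal + 16) scale, although the dimmest did with a pseudocount of 1, after quantile normalization and after a running median was subtracted. All 3 are marked _s_, a type that can match more than a single transcript, so XPO5 has no value when that type is left out. RAN, the GTPase whose GTP-bound form exportin 5 needs to hold its cargo, was 6263 against 5084 (0.30) by its brightest probe set. Its other probe set was 1274 against 1278 (-0.0050), so the probe sets of RAN did not show the same difference.

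The nucleases that cut the precursor differed less. DROSHA, the nuclear RNase III, was 1048 against 944 (0.15) by its single probe set. DICER1, the cytoplasmic RNase III, was 865 against 770 (0.16), 659 against 593 (0.15) and 450 against 453 (-0.0078). Its other 3 probe sets were below the limit, between -0.071 and 0.60, the highest from 21.1 against 8.54. DGCR8, the RNA-binding partner of DROSHA, had no probe set of its own: 4 probe sets name it beside a microRNA gene that it contains, and they gave it no value here.

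Dicer's double-stranded RNA-binding partners pointed in different directions. TARBP2 (TRBP) was 463 against 430 (0.10) by its brightest probe set and 90.0 against 131 (-0.47) by its other one. The gap was 0.57, while the SD of 0.20 is scatter around a gene's mean and does not measure a gap between a pair. PRKRA (PACT), which also activates the kinase PKR, was 1056 against 1263 (-0.25), and another one, below the limit, was at -0.060. ADAR, which edits adenosine to inosine in double-stranded RNA including some primary microRNAs, was 1575 against 1654 (-0.070). LIN28B, the inhibitor of let-7 processing, was below the limit on both arrays at 7.69 and 14.6, so its -0.37 is a difference between dim signals. Over the 7 processing genes above the limit the median was 0.15, and 5 (71.4%) lay above 0, against 43.7% of all genes above it. Without _x_ and _s_ probe sets the median was 0.072 over 4 genes, with RAN at -0.0050 and TARBP2 at -0.47.

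The Argonaute step held the genes farthest below the control. Its median was 0.19 over 7 genes, with 5 (71.4%) above 0, against 43.7% of all genes above the limit. Its mean was -0.0031, because AGO4 and TNRC6B lay far below the rest. Of its 24 probe sets above the limit, 4 (16.7%) passed 1.5-fold on the lower side, against 2.76% of all probe sets, and 0 on the higher side, against 1.53%. Of these 4, 3 belong to TNRC6B, a gene singled out after its values were seen. They include 240044_x_at, which passed the limit only through its si-GL2 signal.

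TNRC6B, a scaffold that links Argonaute to the deadenylases, was lower by most of its probe sets. All 7 were above the limit. The probe set 213254_at, its brightest, was 372 against 549 (-0.54). A second, 1558142_at, was 287 against 501 (-0.77), and 230779_at was 142 against 242 (-0.71). These 3 were lower on the miR-99a array, the last 2 past 1.5-fold. The dimmest, 240044_x_at, was 37.3 against 74.6 (-0.77) and is of a type that can cross-hybridise. Its signal after miR-99a lay below the 47.2 of the limit, so its mean passed only through the higher si-GL2 signal. The probe set 229036_at was 68.1 against 97.5 (-0.43). By contrast 228998_at was 121 against 133 (-0.11), and 238468_at was 341 against 342 (-0.0037), or 0.055 at the highest of the other scalings. Thus 5 probe sets of TNRC6B had differences between -0.77 and -0.43, and the other 2 were at -0.11 and -0.0037. Their median was -0.54 and their mean -0.48.

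For comparison, 14 of 2611 genes with at least 3 probe sets above the limit (0.536%) had 3 or more of them at least 1.5-fold lower. Among 56 genes with at least 7 such probe sets, TNRC6B was the 1 gene (1.79%) with 3 or more that were 1.5-fold lower, and 4 of the 56 (7.14%) had every probe set below 0. TNRC6B was singled out after its values were seen, so these shares describe the arrays. The count of 3 rests on the pseudocount: with 64 in place of 16 the differences were -0.69, -0.57 and -0.45, and 1 of the 3 was past 1.5-fold. It also includes 240044_x_at, which passed the limit only through its si-GL2 signal. Without that probe set TNRC6B would have fewer than 3 and would enter neither count.

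Its paralogues did not share the difference. TNRC6A (GW182 itself) was 877 against 711 (0.30), 476 against 393 (0.27), 388 against 319 (0.27) and 68.5 against 51.8 (0.32). All 4 probe sets of TNRC6A above the limit were higher after miR-99a and had a range of 0.052. Its other 2, below the limit, were at 0.15 and -0.45. TNRC6C was 100.3 against 78.5 (0.30) and 60.6 against 65.5 (-0.090), with 5 further probe sets below the limit between 0.15 and 0.42.

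**Figure D3:**
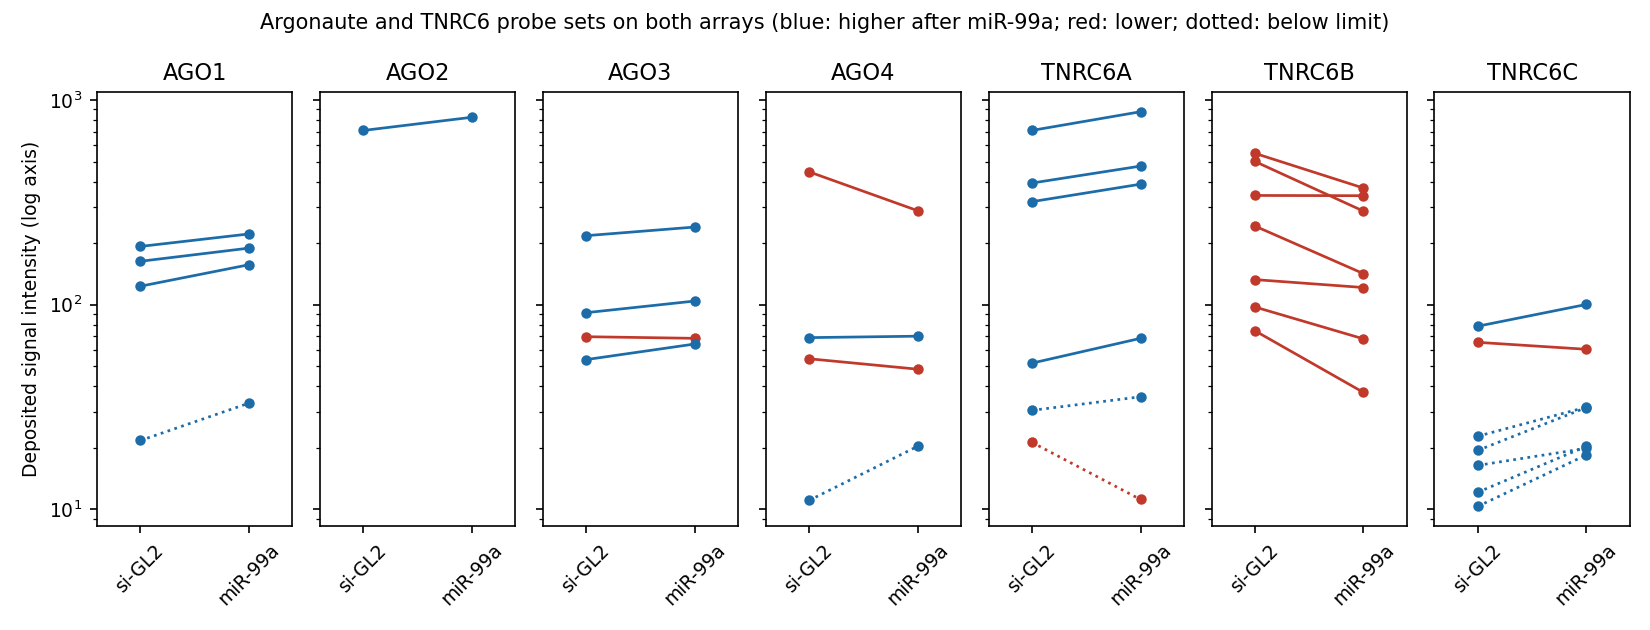
Deposited signal intensity (vertical log axis) of each Argonaute and TNRC6 probe set on the si-GL2 and the miR-99a array, 1 line per probe set (blue higher after miR-99a, red lower, dotted below the level limit). All 4 solid TNRC6A lines climb, all 7 TNRC6B lines descend although the one from 342 to 341 is nearly flat, and in AGO4 the brightest line descends from 446 to 288 while the next is flat.

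The upstream sequences of TNRC6A and TNRC6B are shown because these paralogues differed in opposite directions. RefSeq gives the 250 bases before each start on GRCh38.p14, at chr16:24729401-24729650 for TNRC6A and chr22:40044584-40044833 for TNRC6B, both on the plus strand. Capitals mark the ETS-type motif CCGGAAG, searched on both strands.
TNRC6A: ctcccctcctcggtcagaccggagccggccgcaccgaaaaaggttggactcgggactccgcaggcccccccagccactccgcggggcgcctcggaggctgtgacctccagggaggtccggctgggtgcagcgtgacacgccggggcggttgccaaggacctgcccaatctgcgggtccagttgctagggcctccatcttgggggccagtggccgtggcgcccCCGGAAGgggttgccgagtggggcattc
TNRC6B: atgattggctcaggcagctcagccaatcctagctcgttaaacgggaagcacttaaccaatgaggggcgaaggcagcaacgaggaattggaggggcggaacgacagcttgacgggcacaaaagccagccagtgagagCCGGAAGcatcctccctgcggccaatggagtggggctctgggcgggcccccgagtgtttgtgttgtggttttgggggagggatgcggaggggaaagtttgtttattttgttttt
Each window held 1 ETS-type match. TNRC6A had 1 CCAAT and 1 GGGCGG match and 21 CpG dinucleotides, and TNRC6B had 5 CCAAT and 2 GGGCGG matches and 12 CpG dinucleotides, counted on both strands for the motifs.

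Windows of 29 of the 32 genes could be matched, 51 in all because some genes have several starts. CCGGAAG was in 11.8% of them, against 8.52% of all 35116 windows of that length, and CCAAT in 37.3% against 32%. GGGCGG was in 66.7% against 42.6%, and TATAAA in 5.88%, all windows of 1 gene, against 10.7%. Matches were counted on both strands and motifs were allowed to overlap. The windows held a median of 22 CpG dinucleotides, against 11 in all windows. These are matches of letters and not sites of binding.

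The Argonautes themselves, which hold the guide strand, were slightly higher except for AGO4. AGO2, the member of the family that slices perfectly paired targets, was 824 against 710 (0.21) by its single probe set. AGO1 was 222 against 193 (0.19), 189 against 163 (0.20) and 157 against 123 (0.31), and its remaining probe set, below the limit, was at 0.38. AGO3 was 240 against 217 (0.13), 104 against 91.4 (0.16), 68.5 against 69.8 (-0.021) and 64.3 against 53.9 (0.20). Every AGO1 probe set was thus higher after miR-99a, as were 3 of 4 for AGO3.

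AGO4 was 288 against 446 (-0.60) by its brightest probe set, 227930_at. The next was 70.2 against 69.1 (0.019) and another 48.4 against 54.4 (-0.13), and the last, below the limit, was at 0.43 from 20.3 against 11.1. The lower value of AGO4 thus rested on 1 probe set, and the mean over all 4 was -0.072. In the RefSeq gene table AGO4, AGO1 and AGO3 are consecutive protein-coding genes on chromosome 1. By their brightest probe sets these neighbours were at -0.60, 0.19 and 0.13.

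Deadenylation removes the poly(A) tail from the message. PAN2 and PAN3, the nuclease and the adaptor of the complex that trims long tails, were 401 against 358 (0.16) and 855 against 832 (0.040), each by 1 probe set. CNOT1, the scaffold of CCR4-NOT to which TNRC6 binds, was 1903 against 1731 (0.14), 383 against 341 (0.16) and 307 against 198 (0.59). All 3 probe sets were higher after miR-99a, and the dimmest, 1554052_at, was the 1 member probe set above the limit that reached 1.5-fold higher. It fell short of 1.5-fold when the arrays were centred on their medians and under a pseudocount of 64.

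The nuclease subunits of CCR4-NOT gave unlike values. CNOT8, a CAF1-type deadenylase, was 997 against 710 (0.48), 686 against 599 (0.19) and 642 against 451 (0.50), and was the highest member gene. Every probe set of CNOT8 is marked _s_, so it has no value when that type is left out. Its paralogue CNOT7 was 2986 against 2970 (0.0075, or -0.0047 at the lowest of the other scalings), and its 3 other probe sets above the limit were between 0.073 and 0.22. CNOT6, a CCR4-type deadenylase, was 964 against 1110 (-0.20) and 679 against 850 (-0.32). Both CNOT6 probe sets were lower after miR-99a and all those of CNOT8 were higher.

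Of the non-catalytic subunits, CNOT2 was 1202 against 1241 (-0.045) and 519 against 595 (-0.19), and CNOT3, its partner in the complex, 130 against 113 (0.17) and 68.9 against 72.9 (-0.067). Probe sets below the limit were at 0.34 and -0.012 for CNOT2, at 0.34 for CNOT3, and at 0.33 and -0.51 for CNOT7. The median over the 8 deadenylation genes was 0.088, with 6 (75%) above 0, against 43.7% of all genes above the limit. Without probe sets marked _x_ or _s_ it was -0.030 over 6 genes, so the sign of the step median turned under that setting.

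Decapping exposes the 5′ end of the deadenylated message. DCP2, the decapping enzyme, was 1526 against 1183 (0.36), 312 against 235 (0.39) and 200 against 217 (-0.11), and another below the limit was at 0.19. Its brightest pair was thus higher after miR-99a and the next was not. DCP1A, an activator of DCP2, was 553 against 503 (0.13) and 557 against 488 (0.19), and its paralogue DCP1B was 377 against 337 (0.15). EDC4, the scaffold that joins DCP1 to DCP2, was 100.4 against 85.3 (0.20). EDC3, another enhancer of decapping, was 242 against 291 (-0.25) and 181 against 159 (0.16), so its probe sets opposed each other.

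The helicase DDX6, which links CCR4-NOT to the decapping factors and sits in P-bodies, was near 0. Its probe sets were 2206 against 2225 (-0.012), 111 against 95.5 (0.19) and 94.6 against 96.1 (-0.019, or 0.013 at the highest of the other scalings).

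The 5′ to 3′ exonucleases XRN1 and XRN2 differed in opposite directions. XRN1, which degrades decapped messages in the cytoplasm, was 561 against 724 (-0.36), 569 against 665 (-0.22) and 125 against 132 (-0.073), with another below the limit at 0.28. XRN2, its nuclear counterpart that acts in transcription termination, was 561 against 465 (0.26) and 560 against 456 (0.29). All 3 XRN1 probe sets above the limit were lower after miR-99a and both of XRN2 were higher. Both XRN2 probe sets are marked _s_, so XRN2 has no value when that type is left out. The median over the 8 decapping and decay genes was 0.14, with 5 (62.5%) above 0, against 43.7% of all genes above the limit. Of these 8 genes 0 were past 1.5-fold, where 2.9% of all genes were lower and 1.21% higher. With so few genes, that count does not set the step apart.

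Other genes of these pathways, 127 in 6 lists, were read in the same way. Of the 120 with a probe set of their own, 116 were above the limit. Of these, 64 (55.2%) lay above 0, against 43.7% of all genes above the limit, and the median was 0.019, against -0.031. By the brightest probe set 1 of the 116 was at least 1.5-fold higher, where 1.21% of all genes were. Of the same 116, 0 were 1.5-fold lower, where 2.9% of all genes were. The higher one was TOB2, an antiproliferative protein that recruits CCR4-NOT to messages, at 1441 against 821 (0.80), with a second probe set at 319 against 181 (0.76). Its relative TOB1 had a brightest probe set at 0.19 and another at 0.63, from 379 against 239. Both TOB genes were thus higher after miR-99a by both of their probe sets above the limit. Those of TOB2 are marked _s_, so TOB2 is not among the genes above the limit when that type is left out.

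The list of other deadenylation genes had a median of 0.074 over 23 genes, with CNOT6L, a second CCR4-type nuclease, lowest at -0.32. The 16 Microprocessor cofactors and export factors had a median of 0.086, from the lariat debranching enzyme DBR1 at -0.13 to SRRT (ARS2), which couples the cap-binding complex to the Microprocessor, at 0.32. The 12 genes of precursor control and tailing had a median of 0.0082, from the uridylyltransferase TUT7 at -0.27 to the exonuclease ERI1 at 0.24. The 20 Argonaute loading factors and partners had a median of 0.017, from FMR1 at -0.31 to the chaperone HSP90AB1 at 0.19. None of these 3 lists held a gene past 1.5-fold, where 2.9% of all genes were lower and 1.21% higher.

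Decapping and granule factors had a median of -0.024 over 28 genes, from the RNA-binding protein STAU2 at -0.34 to the cap-binding repressor EIF4E2 at 0.43. The 17 exosome and Ski genes, which degrade messages from the 3′ end, had a median of -0.017, from SKIC3 at -0.33 to EXOSC2 at 0.43. Of the 273 probe sets of these pathway genes above the limit, 4 (1.47%) were at least 1.5-fold lower and 5 (1.83%) at least 1.5-fold higher, against 2.76% and 1.53% of all. The lower ones, none of them the brightest of its gene, were of EXOSC6 (50.6 against 121, -1.04), LSM5, FXR1 (-0.61) and RC3H2 (-0.60). The higher ones belonged to TOB2, TOB1 and G3BP1. The stress granule nucleator G3BP1 had values of 819 against 436 (0.89) and 137 against 56.7 (1.07) beside a brightest probe set at 0.12. LSM5, a subunit of the ring that binds decapping substrates, was 181 against 369 (-0.96) by 1 of its 3 probe sets above the limit and -0.046 by its brightest. EXOSC6 was at -0.15, FXR1 at 0.053 and RC3H2 at -0.31 by their brightest probe sets. The 5 genes EXOSC6, LSM5, FXR1, RC3H2 and G3BP1 were named after their values were seen. In none of them did the probe sets above the limit show the same difference. The values ran from -1.04 to -0.013 in EXOSC6, from -0.61 to 0.34 in FXR1 and from -0.60 to 0.14 in RC3H2. In LSM5 they ran from -0.96 to -0.046 and in G3BP1 from -0.051 to 1.07.

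**Figure D4:**
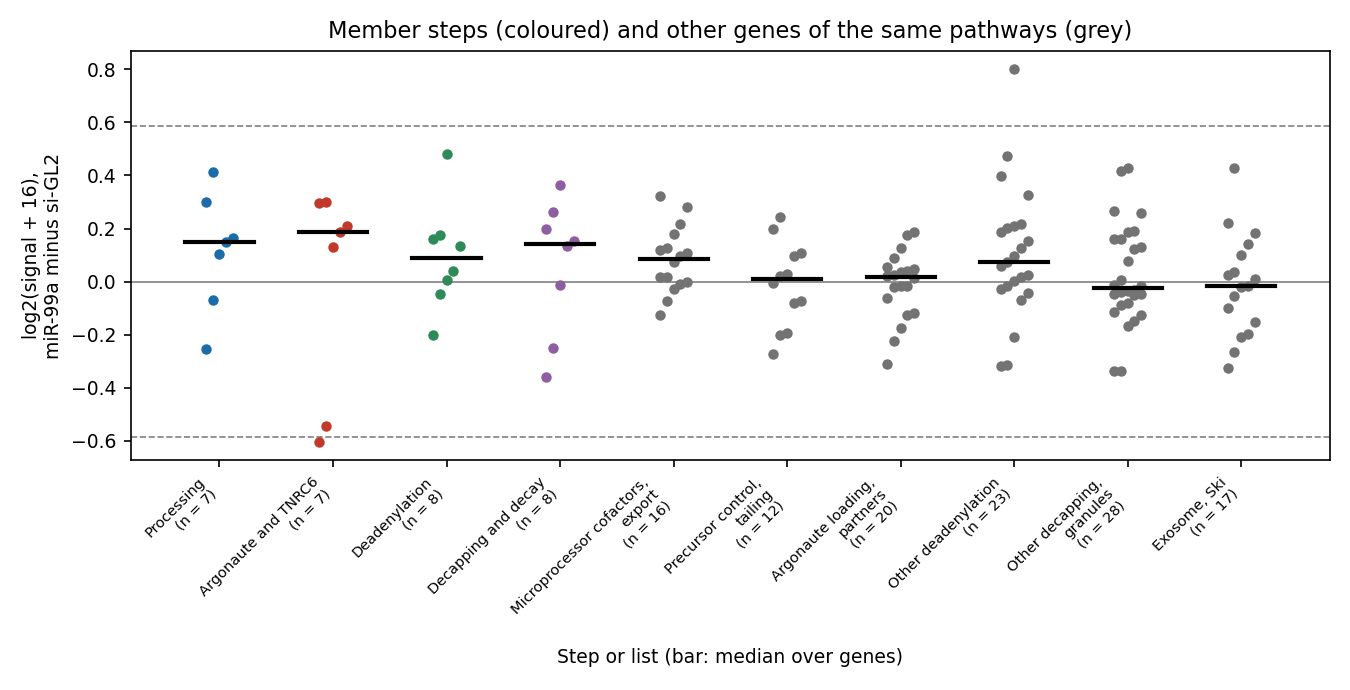
The log2 difference, miR-99a minus si-GL2 (vertical axis), of the brightest probe set of each gene above the level limit, for the 4 steps of member genes (coloured) and 6 lists of other pathway genes (grey), with bars at the medians and dashed lines at 1.5-fold. The step medians lie between 0.088 and 0.19 and those of the other lists between -0.024 and 0.086, with AGO4 past the lower line and TOB2 past the upper one.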

How the data were processed

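The values are linear signal intensities as the authors deposited them, 1 for each probe set on each array. Per the labels' protocols, Trizol RNA was biotin-labelled and hybridised following Affymetrix; how probes were summarised and arrays scaled is not given in the sources used. Signals were used as deposited, because the array medians differed by less than 0.1 on the log2 scale, and were transformed to log2(signal + 16). Gene names came from the platform annotation, and Entrez identifiers of 31 of 31 genes matched the RefSeq table of GRCh38.p14 with the same symbol. A gene was represented by its brightest probe set, and 1.5-fold was a threshold of size without a test, since each group holds 1 array. All members were named, with the highest, the lowest and any gene past 1.5-fold of each pathway list. The members and lists were chosen with earlier results of these data known. Alternatives were pseudocounts of 1 and 64, centring, quantile normalization, a running median over 500 probe sets, no limit, a limit at the 75th percentile, no _x_ or _s_ probe sets, a 2-fold rule and averaging all probe sets of a gene. The counting was tested on simulated data with 2-fold changes in brighter probe sets. That test does not show how the rule behaves near 1.5-fold or in dim probe sets. Python 3.11.15, numpy 2.4.6, pandas 2.3.3 and matplotlib 3.10.9 were used.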

Additional observations from a re-analysis of the deposited data

How the results depend on the processing

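Over 10 alternatives, 82 of 99 recomputed counts and medians stayed within 1.5 times their value (counts) or within the scatter between probe sets divided by the square root of the number of genes (medians). The number of member probe sets at least 1.5-fold higher, 1 as reported, was 2 with a pseudocount of 1 (2.24% of all probe sets), after quantile normalization (1.78%), with a running median subtracted (1.72%) and with no level limit (3.39%), and 0 with a pseudocount of 64 (0.647%), after centring (1.42%) and under a 2-fold rule (0.138%). The number at least 1.5-fold lower, 4 as reported, was 1 with a pseudocount of 64 (1.33% of all), 2 of 46 with the limit at the 75th percentile (2.57%) and 0 under a 2-fold rule (0.317%). The median over member genes was 0.18 after quantile normalization and 0.085 over 24 genes without _x_ and _s_ probe sets, where 14 genes lay above 0, the processing median was 0.072 and the deadenylation median -0.030. The median of the other pathway genes was 0.048 after quantile normalization and 0.040 with a running median subtracted. Without _x_ and _s_ probe sets 1 of them, LSM5, was 1.5-fold lower and 0 were higher. That setting leaves out both TOB2 probe sets above the limit. The cause of these shifts was not tested beyond what each setting leaves out. Single genes moved beyond the scatter in 7 of 260 recomputed values, and AGO4 was at -0.072 as a mean over its probe sets. Changing or dropping the level limit could not move a gene's value, because its brightest probe set stays the same. The values under those settings were thus fixed in advance. Genes that had no value under a setting, such as XPO5 and CNOT8 without _x_ and _s_ probe sets, were not counted. No paired analysis was possible because each group holds 1 array.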

Other observations

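Of the probe sets outside the comparison, 7 name a member beside another gene, 4 of them DGCR8 and 3 AGO2. They were between -0.080 and 0.30, 5 were above the level limit and 0 were past 1.5-fold.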
